A study of Mus musculus with 9 samples.

Results

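The 9 transcription factors that are best known for giving and keeping lymphatic endothelial identity, Prox1, Sox18, Nr2f2, Hhex, Maf, Tbx1, Foxc2, Gata2 and Nfatc1, were followed in lymphatic endothelial cells (LECs) of 3 tissues. Their rows were found by gene symbol in the table of read counts, and all 9 were among its 23018 genes. The LECs were sorted from meninges, the membranes around the brain, from diaphragm and from skin, with 3 libraries per tissue. The donors were untreated wild-type male C57BL/6 mice, labelled as 10 weeks old, and the gate took cells negative for the leukocyte antigen CD45 and positive for CD31 and podoplanin. These groups differ by tissue and by nothing else that the labels record, and the comparisons ask how meningeal LECs differ from those of 2 peripheral tissues. The labels leave unsaid whether replicate libraries stem from different mice, so the p-values cover library-to-library spread, which may be technical.

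Lymphatic vessels arise mainly from veins. In the mouse embryo Sox18 and Nr2f2 switch on Prox1 in venous endothelial cells, and Prox1 then both starts the lymphatic programme, including the VEGF-C receptor Flt4, and has to stay on for the cells to remain lymphatic. A later set, with Foxc2, Gata2 and Nfatc1, shapes collecting vessels and the valves that keep lymph moving in one direction.

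All 9 factors had counts in every library, and Prox1 was the most abundant per length in each of them. Tbx1 was the only one of the 9 with its highest levels in meninges, where the 3 libraries lay above the other 6, as for 4.59% of all genes tested. In CPM, Nr2f2, Maf, Gata2 and Nfatc1 were highest in skin, where the 3 libraries lay above the other 6, as for 2.29% of all genes tested. Prox1 was lowest in meninges, with no overlap with either peripheral tissue, as was found for 2.16% of all genes tested. None of the 9 passed the test across all genes in any of the 3 comparisons (edgeR's quasi-likelihood test, Benjamini-Hochberg adjusted p under 0.05), so these orders are descriptions of the 9 libraries.

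Total counts ran from 26075366 to 34592850 per library, and 14831 genes were abundant enough to be tested. The spread between libraries was large, with a common biological coefficient of variation of 1.243. The share of counts from mitochondrial ribosomal RNA also moved with tissue, at 10.8% to 22.9% in meninges, 19.0% to 29.0% in diaphragm and 27.0% to 30.8% in skin, and its part in the results was not tested. Of 9 LEC markers other than the 9 factors (Flt4, Lyve1, Pdpn, Mmrn1, Reln, Ccl21a, Cldn5, Cdh5 and Pecam1), all had counts in each tissue. Cdh5 and Pecam1 are also among the general endothelial genes used further below, so the markers are not all particular to LECs. Among the 9 markers, the row of Ccl21a was close to 0, at 0.156 to 1.35 CPM (counts scaled to each library's effective size). The rule for multi-mapped reads is not given, so a low count does not show that this RNA was absent. The summed level of the 9 markers ran from 6035 to 15136 CPM in meninges and from 13267 to 18582 CPM in diaphragm. In skin it ran from 18931 to 19342 CPM. Markers of other cells were also present and moved with tissue. All 12 fibroblast markers had counts in each tissue, and their sum was 2445 to 9497 CPM in meninges, 1252 to 1830 CPM in diaphragm and 523 to 1671 CPM in skin. The 8 mural cell markers summed to 484 to 1140 CPM in meninges, 298 to 487 CPM in diaphragm and 36.0 to 273 CPM in skin. The 9 blood endothelial markers summed to 1232 to 2786 CPM, 821 to 1921 CPM and 406 to 581 CPM in the same tissues, with Esm1 at 0 in skin. Within meninges, replicate 1 had the lowest fibroblast sum (2445 CPM) and the highest LEC sum (15136 CPM), and its blood endothelial sum (2786 CPM) was the highest of all libraries, while replicate 2 had a fibroblast sum of 9459.9 CPM and the lowest LEC sum (6035 CPM). The 8 bone and cartilage markers summed to 184 to 1003 CPM in meninges, 3.94 to 42.5 CPM in diaphragm and 0.310 to 121 CPM in skin, and Alpl and Runx2 were called higher in meninges in both comparisons. The 6 Schwann and glial markers summed to 43.9 to 114 CPM in meninges, 0.379 to 14.6 CPM in diaphragm and 3.87 to 7.88 CPM in skin. Mesothelial markers were found mainly in diaphragm (41.0 to 1194 CPM), and 5 of the 6, Msln, Upk3b, Wt1, Lrrn4 and Muc16, were at 0 in meninges and all 6 in skin. Skeletal muscle markers summed to 22.7 to 35.5 CPM in meninges, 371 to 1062 CPM in diaphragm and 68.8 to 269 CPM in skin, and the muscle genes Pax7, Myod1, Myf5, Myh4 and Ckm were at 0 in meninges. The part of these other cells in the levels below was not tested beyond the values given with them.

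Set side by side per kilobase of exonic length, Prox1 ranked first of the 9 in all 9 libraries, at 129.5 ± 38.9 CPM per kb for meningeal, 216 ± 22.4 CPM per kb for diaphragm and 230.0 ± 14.6 CPM per kb for skin libraries (mean ± SD of 3). Sox18 followed, ranking second in each library but Meninges replicate 2, where Maf stood above it. Sox18 measured 83.9 ± 55.1 CPM per kb in meninges, 91.3 ± 19.0 in diaphragm and 101 ± 31.8 in skin. Maf, Nr2f2 and Nfatc1 formed the middle of the order, with means over the 9 libraries of 49.2, 45.1 and 39.5 CPM per kb. Foxc2, Tbx1, Hhex and Gata2 were the lowest, with means of 15.7, 11.97, 8.88 and 7.15 CPM per kb, and they changed places from library to library. Tbx1 held rank 5 or 6 in the meningeal libraries and ranks 7 to 9 in the libraries of the other tissues.

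**Figure D1:**
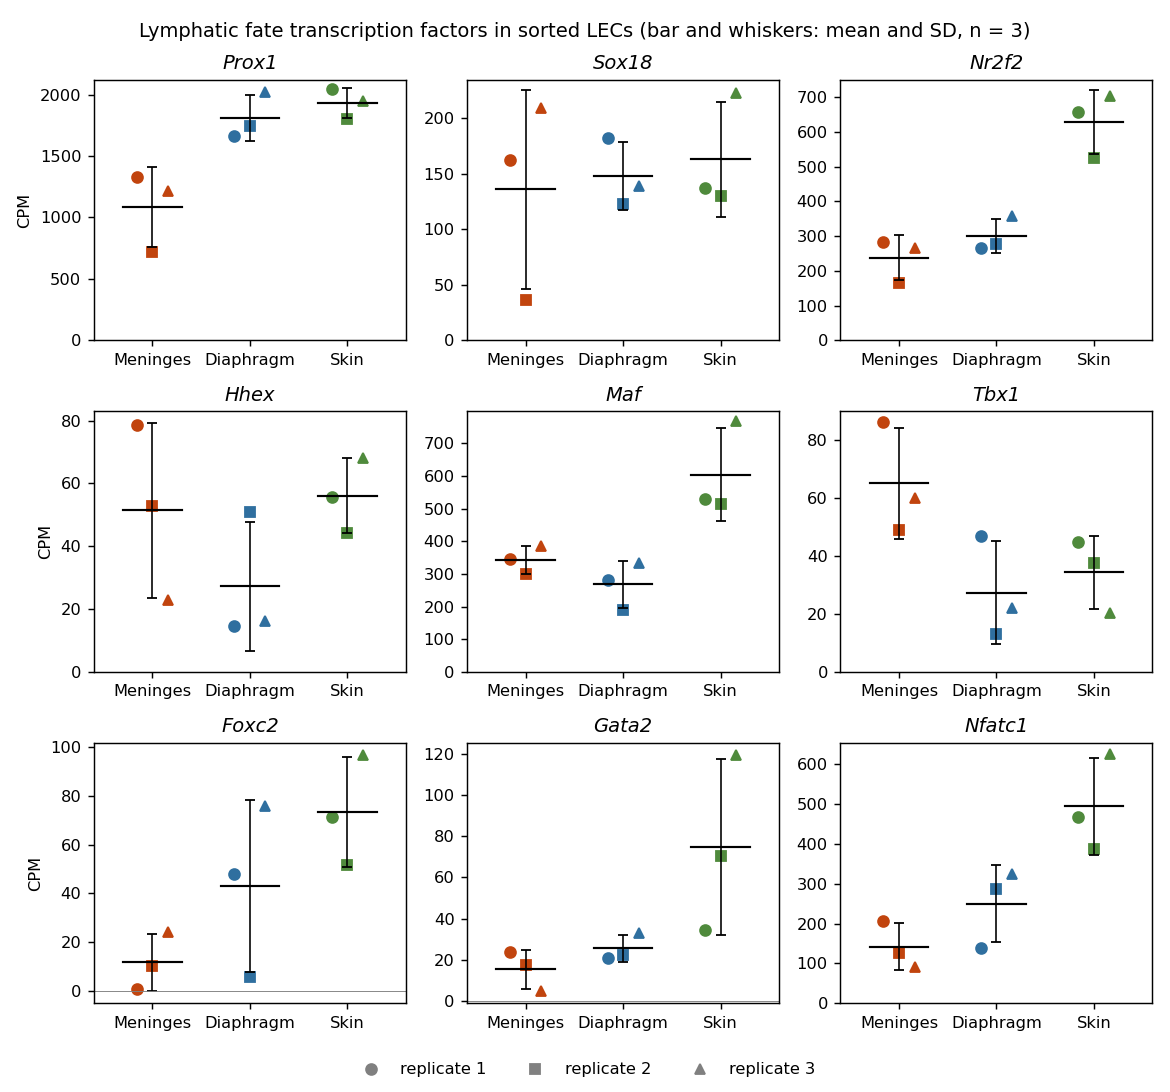
Level of each factor in CPM (linear axes from 0, 1 panel per gene) in the meningeal, diaphragm and skin libraries, with 1 symbol per replicate, a bar for the mean and whiskers for the SD (n = 3 per tissue). The skin libraries stand above the others for Nr2f2, Maf, Gata2 and Nfatc1, the meningeal libraries stand above the others for Tbx1, and the Prox1 values of meninges (716 to 1332 CPM) lie below those of diaphragm and skin (1666 to 2042 CPM).

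Among the factors that specify the lineage, Prox1, the homeodomain factor that defines LECs, was measured at 1332, 716 and 1212 CPM in the 3 meningeal libraries. It had 1666, 1742 and 2022 CPM in the diaphragm libraries and 2042, 1799 and 1948 CPM in the skin libraries. Each meningeal library was below each peripheral one, while diaphragm and skin overlapped. The log2 fold change was -0.74 (standard error 0.26, edgeR adjusted p = 0.346) for meninges against diaphragm and -0.83 (standard error 0.26, edgeR adjusted p = 0.178) for meninges against skin. In bulk libraries such as these, fewer LECs among the sorted cells and less Prox1 RNA per LEC cannot be told apart. Meninges replicate 2, with the lowest Prox1 level, also had the lowest LEC marker sum. Of these markers, Flt4, Lyve1, Pdpn, Ccl21a and Cldn5 are also on the list of reported targets of the factors. The sum is therefore not a measure of LEC content separate from the factors. Meninges replicate 1, with the lowest fibroblast and the highest blood endothelial sum of the 3, lay below all 6 peripheral libraries as well, and the part of these cells was not tested.

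Nr2f2, which encodes the orphan nuclear receptor COUP-TFII that sets venous identity and binds Prox1 protein, had 284, 164 and 266 CPM in meninges. Its level was 264, 278 and 357 CPM in diaphragm and 657, 524 and 703 CPM in skin. Meninges and diaphragm overlapped, and skin stood above both without overlap. Against skin, the log2 fold change was -1.40 for meninges (95% interval -2.10 to -0.70, edgeR adjusted p = 0.0554) and -1.07 for diaphragm (95% interval -1.76 to -0.37, edgeR adjusted p = 0.285). The meningeal difference had the smallest adjusted p of any member in the 3 comparisons and missed the threshold. It passed with limma voom, with DESeq2, without a filter on low counts and with a filter of 50 counts in 3 libraries, but in none of the 9 fits that left out a library (adjusted p 0.058 to 0.205) and not with libraries scaled by totals (0.127) or by endothelial genes (0.185). An annotated transcript on the opposite strand, B130024G19Rik, shares 643 of the 8625 exonic bases of Nr2f2. Since no source used here gives the strand setting of the counting, reads over those shared bases cannot be told apart. The row of B130024G19Rik had 81.2, 59.1 and 29.0 CPM in meninges, 37.0, 47.2 and 57.1 CPM in diaphragm and 166, 117 and 93.7 CPM in skin, so that it too was highest in the 3 skin libraries.

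Sox18, the SRY-box factor that turns on Prox1 in the embryonic cardinal vein, stood at 162, 36.5 and 209 CPM in meninges, 182, 122 and 139 CPM in diaphragm and 137, 129.7 and 223 CPM in skin. The 3 tissues overlapped, and the largest gap was within meninges, where replicate 2 was far below the other meningeal libraries. Every interval for Sox18 spanned 0, with log2 fold changes of -0.12 for meninges against diaphragm (95% interval -1.29 to 1.05), -0.26 for meninges against skin (-1.43 to 0.91) and -0.14 for diaphragm against skin (-1.31 to 1.03), and the sign turned in all 3 comparisons when libraries were scaled by total counts alone. Hhex, a homeobox factor that acts upstream of Prox1 and Flt4 in zebrafish and mouse vessels, had 78.7, 52.7 and 23.0 CPM in meninges. The other tissues gave 14.5, 50.8 and 16.3 CPM in diaphragm and 55.7, 44.2 and 68.2 CPM in skin. Hhex overlapped between all tissues, and its spread within diaphragm, 3.51-fold between libraries, was wider than the gap between any 2 tissue means. Its log2 fold change for meninges against skin was -0.12 (95% interval -1.71 to 1.46), with the sign turned by scaling to total counts.

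The start regions of 5 of the 9 genes, Prox1, Nr2f2, Hhex, Tbx1 and Gata2, were found among the RefSeq promoters of the mouse build GRCm38.p6. Those of Prox1 (chr1:190170828-190171077, minus strand) and Nr2f2 (chr7:70366747-70366996, minus strand) are shown because Nr2f2 had the steadiest ratio to Prox1 within tissues of the genes compared, and that of Tbx1 (chr16:18590672-18590921, minus strand) because its tissue order differed from that of all other factors. Each is the 250 bases before the annotated start, read along the gene, and capitals mark the core site of the NFAT family (GGAAAA, or TTTTCC where it lies on the other strand).
Prox1: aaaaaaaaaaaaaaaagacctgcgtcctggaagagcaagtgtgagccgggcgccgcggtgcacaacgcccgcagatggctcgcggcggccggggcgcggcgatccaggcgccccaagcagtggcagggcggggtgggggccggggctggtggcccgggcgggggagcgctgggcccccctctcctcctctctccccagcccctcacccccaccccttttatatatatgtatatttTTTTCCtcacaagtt
Nr2f2: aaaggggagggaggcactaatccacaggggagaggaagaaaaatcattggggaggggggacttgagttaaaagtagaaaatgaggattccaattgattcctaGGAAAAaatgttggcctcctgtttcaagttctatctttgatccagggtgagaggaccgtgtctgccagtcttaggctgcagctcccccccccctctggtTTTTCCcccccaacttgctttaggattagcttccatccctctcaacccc
Tbx1: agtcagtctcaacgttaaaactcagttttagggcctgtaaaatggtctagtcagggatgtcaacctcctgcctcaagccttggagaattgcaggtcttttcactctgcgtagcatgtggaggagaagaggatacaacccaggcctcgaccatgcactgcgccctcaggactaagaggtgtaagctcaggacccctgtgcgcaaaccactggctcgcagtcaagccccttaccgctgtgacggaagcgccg
The NFAT core was found 1 time in the Prox1 window, 15 bases before the start, and 2 times in the Nr2f2 window, 148 and 49 bases before it. It was absent from the other 3 windows, and 20.4% of all 32851 RefSeq promoters of that length hold it on one strand or the other. No other motif searched on both strands had a match in the 5 windows: AGATAA for GATA factors (in 9.99% of all promoters), AACAAT for SOX factors (9.42%), TGTTTAC for forkhead factors (3.17%), AGGTCA for nuclear receptors (14.0%), AGGTGTGA for T-box factors (1.12%) and TGCTGA for MAF factors (16.1%). The windows differed in base composition, with 64.8% G and C for Prox1, 50% for Nr2f2 and 54.4% for Tbx1, against a median of 52.4% over all promoters.

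Of the factors that pattern the growing vessels, Maf, a bZIP transcription factor, measured 345, 299.9 and 385 CPM in meninges. It had 280.4, 190.4 and 333 CPM in diaphragm and 529.8, 514 and 769.6 CPM in skin. Skin was again above both other tissues with no overlap, and meninges and diaphragm overlapped. The log2 fold change was -0.82 for meninges against skin (standard error 0.32, edgeR adjusted p = 0.274) and -1.17 for diaphragm against skin (standard error 0.33, edgeR adjusted p = 0.234). An opposite-strand transcript, Gm15655, shares 440 exonic bases with Maf and was not analysed here.

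Tbx1, the T-box factor that in mice is needed for lymphatic growth and regulates Flt4, had 85.9, 49.0 and 59.7 CPM in meninges, 47.0, 12.8 and 22.0 CPM in diaphragm and 44.8, 37.4 and 20.4 CPM in skin. Its meningeal libraries were above all others, although the gap between Meninges replicate 2 (49.0 CPM) and Diaphragm replicate 1 (47.0 CPM) was small. The log2 fold change was 1.25 against diaphragm (95% interval -0.31 to 2.82, edgeR adjusted p = 0.658) and 0.92 against skin (95% interval -0.63 to 2.48, edgeR adjusted p = 0.694). Tbx1 was highest in Meninges replicate 1, the meningeal library with the lowest fibroblast sum and the highest LEC and blood endothelial sums. Its log2 fold change was positive in all 20 alternative fits of both meningeal comparisons, at 0.88 to 1.90 against diaphragm and 0.63 to 1.30 against skin, and the test was passed in none of them.

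In the valve group, Nfatc1, which calcineurin sends to the nucleus when calcium rises, had 207, 127 and 91.7 CPM in meninges. It stood at 139, 287 and 324 CPM in diaphragm and at 467, 388 and 627 CPM in skin. The skin libraries lay above the other 6, and meninges and diaphragm overlapped. The log2 fold change was -1.80 for meninges against skin (95% interval -2.72 to -0.88, edgeR adjusted p = 0.0609), and -0.98 for diaphragm against skin (95% interval -1.88 to -0.08, edgeR adjusted p = 0.389). The meningeal difference passed the test when Meninges replicate 1 was left out (-2.18, edgeR adjusted p = 0.0391) and without Diaphragm replicate 1 (-1.80, edgeR adjusted p = 0.0343), while the other fits that left out a library gave an adjusted p of up to 0.235.

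Gata2, a zinc finger factor needed for valves and for the separation of lymphatics from veins, was low, with 23.7, 17.8 and 4.81 CPM in meninges, 21.2, 22.5 and 33.1 CPM in diaphragm and 34.4, 70.2 and 119.6 CPM in skin. Skin was highest without overlap, but its own libraries spread over 3.48-fold. Its log2 fold change was -2.28 for meninges against skin (standard error 0.83, edgeR adjusted p = 0.229) and -1.55 for diaphragm against skin (standard error 0.81, edgeR adjusted p = 0.479). Foxc2, the forkhead factor of collecting vessels and valves, had 0.720, 10.1 and 24.2 CPM in meninges, 47.9, 5.83 and 76.0 CPM in diaphragm and 71.5, 51.8 and 97.0 CPM in skin. Meninges replicate 1 held 23 Foxc2 counts, the lowest count of any of the 9 factors in any library. Foxc2 was below skin in each meningeal library and overlapped with diaphragm, where replicate 2 was 13.0-fold below replicate 3. The Foxc2 estimates were the least precise of the 9, with a log2 fold change of -2.65 for meninges against skin (95% interval -5.06 to -0.24, edgeR adjusted p = 0.302) and of -1.89 for meninges against diaphragm (95% interval -4.23 to 0.45). With a library left out these ran from -3.77 (without Meninges replicate 3) to -2.10 (without Meninges replicate 1), and from -3.00 (without Meninges replicate 3) to -1.20 (without Diaphragm replicate 3).

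Taken by comparison, 0 of the 9 factors passed the test for meninges against diaphragm, where 51 genes, or 0.344% of those tested, were called. At an unadjusted p under 0.05 it was 1 of 9 (Prox1), against 10.1% of all genes. Voom in limma called Prox1 (1.35% of genes called) and DESeq2 called none of the 9 (6.03%). Tbx1 was higher and Prox1 lower in meninges without overlap, which held for 10.4% and 6.7% of all genes. The median log2 fold change was -0.33 over the 9 factors and 0.05 over all genes tested.

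For meninges against skin, 0 of 9 passed, with 196 genes (1.32%) called in all. Here 6 of the 9, Prox1, Nr2f2, Maf, Foxc2, Gata2 and Nfatc1, had an unadjusted p under 0.05, against 13.8% of all genes, and the same 6 were lower in meninges than in skin in every library pair, against 7.34% of all genes. As in the other comparisons, both counts read the same values. The shares are over all genes tested, not over genes of like abundance. limma voom called Prox1, Nr2f2 and Nfatc1 (2.79% of genes called), and DESeq2 called Gata2, Nr2f2 and Nfatc1 (9.34%). Nr2f2 and Nfatc1 were also called by edgeR without a filter (2.65%) and with 50 counts in 3 libraries (1.69%). Tbx1 alone was higher without overlap (12.9% of all genes). The median log2 fold change of the 9 was -0.83, beside 0.08 for all genes tested. With meningeal libraries higher in fibroblast, mural and blood endothelial markers and lower in LEC markers than skin libraries, the part of those cells in the lower values was not tested.

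For diaphragm against skin, 0 of 9 passed, and 6 genes (0.0405%) of the whole table did. Nr2f2, Maf and Nfatc1 had an unadjusted p under 0.05, which made 3 of 9 against 11.8% of all genes. Nr2f2, Maf, Gata2 and Nfatc1 were lower in diaphragm without overlap (5.95% of all genes), and none was higher (7.54%). DESeq2 called Nr2f2 and Maf (6.79% of genes called), and limma voom called none of the 9 (0.00674%). The median log2 fold change was -0.98 for the 9 and 0.01 for all genes. The comparisons share libraries, so the low values against skin in meninges and in diaphragm are not separate observations.

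**Figure D2:**
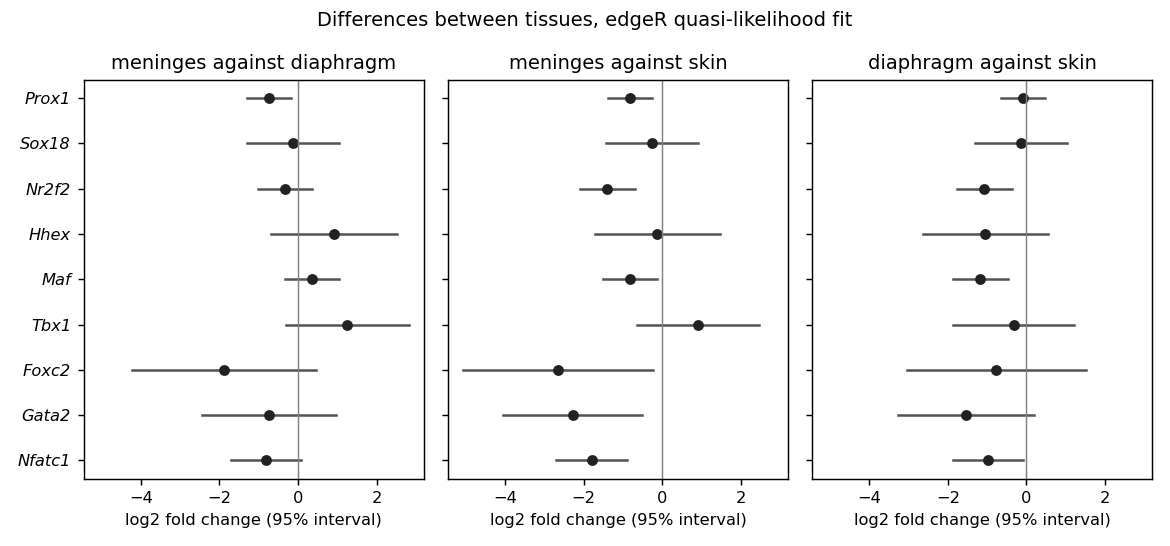
Log2 fold change of each factor (points) with its 95% interval (lines) for meninges against diaphragm, meninges against skin and diaphragm against skin, from the edgeR fit of all genes, where negative values mean lower in the tissue named first. Nr2f2 (-1.40) and Nfatc1 (-1.80) lie farthest from 0 relative to their intervals in meninges against skin, Foxc2 has the widest intervals, and none of the 27 values passed the adjusted test.

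Each factor was also given as counts per 1000 Prox1 counts of the same library, a measure that does not depend on how libraries are scaled. On it Nr2f2 was at 213, 229 and 219 in meninges, 159, 159.5 and 176 in diaphragm and 322, 291 and 361 in skin. The 3 tissues did not overlap, and the highest library was 1.07-fold above the lowest within meninges, 1.11-fold within diaphragm and 1.24-fold within skin. Meninges replicate 2, with the lowest Nr2f2 and Prox1 levels of all libraries, had a ratio of 229, beside 213 and 219 in the other meningeal libraries. Within tissues, the log2 ratio of Nr2f2 to Prox1 had an SD of 0.107, the smallest of 7170 genes whose log2 CPM averaged 3 or more. The next genes were Serinc3 at 0.116 and Tgfbr2, a TGF-beta receptor, at 0.122. Among the 238 genes at least as abundant as Nr2f2 the median SD was 0.393. With each library left out in turn Nr2f2 ranked between 1 and 5, and with Nr2f2 as the denominator Prox1 ranked 2. A ratio to Prox1 shows unequal change of the pair and not which of them differs.

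Per 1000 Prox1 counts, Tbx1 had 64.5, 68.4 and 49.3 in meninges, 28.2, 7.37 and 10.9 in diaphragm and 21.9, 20.8 and 10.5 in skin. The gap between the lowest meningeal and the highest peripheral library was wider on this scale than in CPM. Prox1, the denominator, was itself lowest in meninges, which raises the meningeal values of any gene on this scale. Meninges lay above all 6 others for 10.9% of all genes here and for 4.59% in CPM. Maf gave 259, 419 and 318 in meninges, 168, 109 and 165 in diaphragm and 259.4, 286 and 395 in skin, so that diaphragm lay below both other tissues and meninges and skin overlapped. Nfatc1 averaged 136 ± 53.5 for meninges, 136 ± 45.6 for diaphragm and 255 ± 58.0 for skin (mean ± SD of 3), with skin above the other tissues. The rest overlapped between at least 2 of the tissue pairs. Sox18 averaged 115 ± 61.1, 82.8 ± 23.0 and 84.5 ± 25.9 in meninges, diaphragm and skin, and Gata2 15.5 ± 10.6, 14.0 ± 2.03 and 39.1 ± 22.3. Of the 8 factors other than Prox1, 3 (Nr2f2, Maf and Tbx1) were higher in meninges than in diaphragm without overlap, against 20.2% of all genes, and 1 (Tbx1) was higher than in skin, against 24.0%. Lower in meninges than in skin were 3 (Nr2f2, Foxc2 and Nfatc1), against 2.48% of all genes, and 4 (Nr2f2, Maf, Gata2 and Nfatc1) were lower in diaphragm than in skin, against 5.26%. Skin lay above all 6 other libraries for Nr2f2 and Nfatc1 (0.904% of all genes), diaphragm below all 6 others for Nr2f2 and Maf (2.37%), and meninges above all 6 others for Tbx1 (10.9%).

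**Figure D3:**
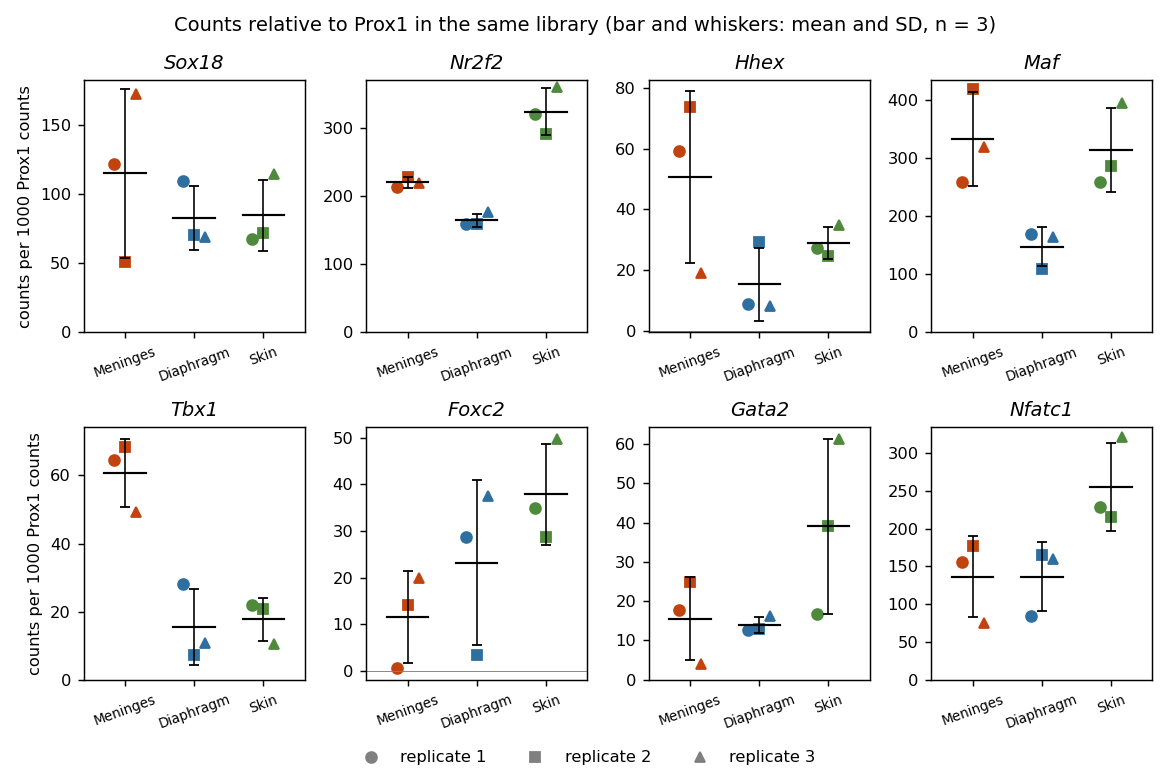
Counts of the 8 other factors per 1000 Prox1 counts of the same library (linear axes, 1 panel per gene) in meninges, diaphragm and skin, with 1 symbol per replicate, a bar for the mean and whiskers for the SD (n = 3 per tissue). Nr2f2 forms 3 tight and separate groups at 213 to 229, 159 to 176 and 291 to 361, and Tbx1 is set apart in meninges at 49.3 to 68.4.

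Set against the mean of 11 general endothelial genes (Cdh5, Pecam1, Tie1 and others) in the same library, on the log2 CPM scale, skin stayed above the other 6 libraries for Nr2f2 and Gata2 but not for Maf and Nfatc1. Maf was at 1.86 in Meninges replicate 2, against 1.76 in Skin replicate 2, and Nfatc1 was at 1.63 in Diaphragm replicate 2, against 1.36 in Skin replicate 2. Prox1 stood 3.09 ± 0.17 above that mean in meninges, 3.76 ± 0.45 in diaphragm and 3.91 ± 0.37 in skin. Nr2f2 was 0.91 ± 0.20, 1.16 ± 0.46 and 2.28 ± 0.45 above it in the same tissues. Tbx1 stood at -0.97 ± 0.18 relative to it in meninges, -2.48 ± 0.58 in diaphragm and -1.98 ± 0.76 in skin. The meningeal libraries (-1.10 to -0.76) again lay above all others (-2.85 to -1.20) for Tbx1. The share of all genes with such gaps was not worked out on this scale. Whether Nr2f2, Gata2 and Tbx1 stand out from other genes on it was therefore not tested.

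The nearest relatives of the 9 factors, which often share their binding motif, were taken as a list of 25, of which 20 were tested. For meninges against skin, 2 were called higher (Sox17 and Tbx3) and 1 lower (Nfatc2), against 0.748% and 0.573% of all genes, and 0 were called in the other comparisons by edgeR, where 0.344% and 0.0405% of genes were. For meninges against diaphragm, 5 of the 20 had an unadjusted p under 0.05 (10.1% of all genes), limma voom called 1 (1.35%) and DESeq2 called 3 (6.03%). For meninges against skin the counts were 9 (13.8%), 2 (2.79%) and 6 (9.34%), and for diaphragm against skin 5 (11.8%), 0 (0.00674%) and 4 (6.79%). Sox17, a relative of Sox18 known from arterial endothelium, had 30.0, 27.1 and 51.6 CPM in meninges, 0.147, 7.39 and 2.76 CPM in diaphragm and no count in skin. This put the meningeal mean 874-fold above skin, with skin set at a floor of 3 counts over the group (edgeR adjusted p = 0.0283). The call was kept without any 1 diaphragm library and lost without any 1 meningeal or skin library. Tbx3, a T-box relative of Tbx1, had 0.438, 9.59 and 18.3 CPM in meninges, 56.1, 34.8 and 18.1 CPM in diaphragm and no count in skin. Its meningeal mean was 228-fold above the same floor (edgeR adjusted p = 0.0406), a value that leaves out the spread between the meningeal libraries. The Tbx3 call was kept in 1 of the 9 fits that left out a library, that without Meninges replicate 1. Nfatc2, the calcineurin-activated relative of Nfatc1, fell to 1.28, 4.12 and 2.67 CPM in meninges, against 44.0, 39.1 and 61.8 CPM in skin, with 34.5, 41.0 and 24.0 CPM in diaphragm. Its log2 fold change against skin was -4.16 (standard error 0.93, edgeR adjusted p = 0.0478), and that call was lost in each of the 9 fits without a library (adjusted p 0.0555 to 0.179). Neither Tbx3 nor Nfatc2 was called by limma voom or in fits of 2 tissues alone, and Nfatc2 was not called with libraries scaled by totals or by endothelial genes. In these same libraries Nfatc1 was also lowest in meninges by its mean. The summed blood endothelial markers moved the same way as Sox17 between meninges and skin, with 4 of the 9 called higher in meninges (Plvap, Aqp1, Nrp1 and Esm1) and Emcn called lower (log2 fold change -1.98, edgeR adjusted p = 0.0343), and their part in its level was not tested.

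The most abundant relative was Nfat5, the tonicity-responsive NFAT protein that does not depend on calcineurin, at 1044 ± 82.4 CPM in meninges, 1517 ± 191 CPM in diaphragm and 2167 ± 588 CPM in skin (mean ± SD of 3). Its log2 fold change for meninges against skin was -1.05 (standard error 0.26, edgeR adjusted p = 0.0653). Nfatc3 followed at 117 ± 3.05 CPM in meninges, 168 ± 60.7 CPM in diaphragm and 104 ± 28.4 CPM in skin. Foxc1, which shares valve functions with Foxc2, was at 34.3, 102 and 72.6 CPM in meninges, 42.1, 10.5 and 5.41 CPM in diaphragm and 144, 38.6 and 45.1 CPM in skin, with all tissues overlapping and 2 of the 3 diaphragm libraries below all others. Sox7, the third of the vascular SOX group with Sox17 and Sox18, had 18.6, 6.87 and 12.8 CPM in meninges, 21.2, 86.0 and 33.7 CPM in diaphragm and 207, 25.7 and 47.4 CPM in skin. The median log2 fold change over the 20 relatives was -0.03, -0.06 and -0.20 in meninges against diaphragm, meninges against skin and diaphragm against skin, beside 0.05, 0.08 and 0.01 for all genes.

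**Figure D4:**
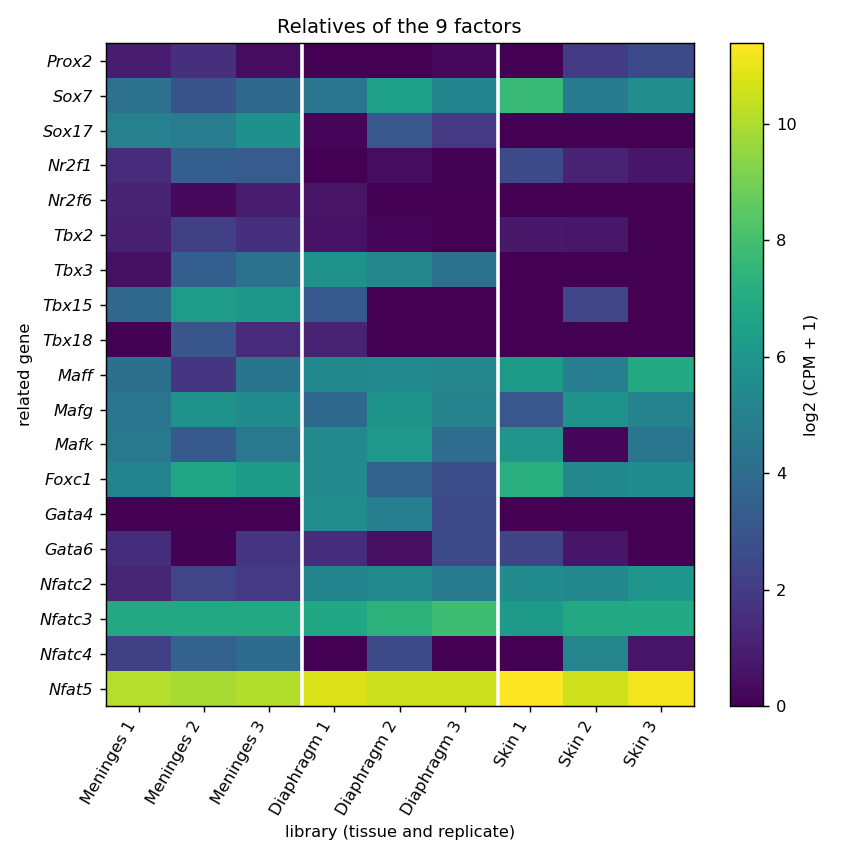
Level of 19 of the tested relatives of the 9 factors as log2 of CPM + 1 (colour scale) in each library, with white lines between meninges, diaphragm and skin. Sox17 is bright in meninges and at 0 in skin, Tbx3 is at 0 in skin, Nfatc2 is dim in meninges (1.28 to 4.12 CPM), and Nfat5 is the brightest row in all libraries.

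Of 20 reported targets of the factors, 19 were tested, and Lyve1, a hyaluronan receptor of initial lymphatics, was the 1 called, lower in meninges than in skin (log2 fold change -1.63, edgeR adjusted p = 0.0326). That call was lost without Meninges replicate 2 or 3, without Skin replicate 1 or 3, and with libraries scaled by totals or by endothelial genes. For meninges against diaphragm and diaphragm against skin, 0 targets were called by edgeR. Flt4, the target named at the start, had a log2 fold change of -0.05 for meninges against diaphragm (edgeR adjusted p = 0.994). Against skin the meningeal value was -0.53 (edgeR adjusted p = 0.478). Of the 19, 6, 9 and 1 had an unadjusted p under 0.05 in meninges against diaphragm, meninges against skin and diaphragm against skin (10.1%, 13.8% and 11.8% of all genes). In the same comparisons limma voom called 1, 2 and 0 (1.35%, 2.79% and 0.00674%), and DESeq2 2, 2 and 0 (6.03%, 9.34% and 6.79%). Prox1, Nr2f2 and Lyve1 were all lowest in Meninges replicate 2. That library was also lowest for the LEC markers Flt4, Mmrn1, Reln, Ccl21a, Cdh5 and Pecam1, but not for Pdpn and Cldn5. Nrp2, the VEGF-C co-receptor, had its highest mean in meninges, with 1265, 845 and 1192 CPM in meninges, 692, 692 and 589.6 CPM in diaphragm and 888, 563 and 449.8 CPM in skin, where 1 skin library overlapped with meninges, and did not pass the test (log2 fold change 0.80 against skin, edgeR adjusted p = 0.256). Itga9, the valve integrin subunit, had 254, 179.8 and 332 CPM in meninges, 325, 296 and 465 CPM in diaphragm and 647, 299 and 158 CPM in skin, with all tissues overlapping. The median over the 19 targets was -0.16 against diaphragm and -0.17 against skin for meninges, and -0.02 for diaphragm against skin. Of 20 genes for signals upstream of lymphatic fate, such as Vegfc, Ccbe1, Notch1 and Piezo1, 18 were tested and 0 were called in any comparison by edgeR. At an unadjusted p under 0.05 there were 4, 6 and 2 in meninges against diaphragm, meninges against skin and diaphragm against skin (10.1%, 13.8% and 11.8% of all genes), with 0, 1 and 0 called by limma voom (1.35%, 2.79% and 0.00674%) and 1, 4 and 2 by DESeq2 (6.03%, 9.34% and 6.79%). Vegfc, the lymphatic growth factor itself and the gene limma voom called, had 10.5, 8.22 and 13.3 CPM in meninges, 7.67, 8.82 and 10.9 CPM in diaphragm and 0, 0 and 0.0457 CPM in skin (edgeR adjusted p = 0.0805 for meninges against skin). Kdr, the second VEGF-C receptor, was at 548, 261 and 443 CPM in meninges, 646, 905 and 725 CPM in diaphragm and 763, 535 and 563 CPM in skin. Ctnnb1, which encodes beta-catenin, was at 399, 479.7 and 491 CPM in meninges, 304, 672 and 522 CPM in diaphragm and 396, 306 and 271 CPM in skin. Meninges was below diaphragm for Kdr and above skin for Ctnnb1 without overlap, and the other pairs of tissues overlapped.

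For each factor, the genes whose profile over the 9 libraries lay closest were found by the root-mean-square distance of centred log2 CPM values among 7171 genes, as a description over libraries that share depth and tissue. Prox1 lay nearest to Reln, the gene of the glycoprotein reelin secreted by LECs (distance 0.17), and to the laminin gene Lama4 (0.19). Nr2f2 lay nearest to Foxp1, a forkhead factor (0.21), and Dock9 (0.23), and Dock9 was also nearest to Nfatc1 (0.27). Dock9 had 835, 492 and 550.2 CPM in meninges, 766, 1107 and 1054 CPM in diaphragm and 1864, 1408 and 2233 CPM in skin, so that skin was highest here too. Maf lay nearest to the polarity gene Pard3 (0.15) and Zmiz1 (0.16), the smallest distances of any factor. Sox18 was nearest to Cmtm3 (0.34) and Cdh5 (0.35), the gene of VE-cadherin, and all 3 were lowest in Meninges replicate 2. Tbx1 was nearest to Plxnb2, a semaphorin receptor (0.37), with 86.0, 66.8 and 76.3 CPM in meninges, 49.7, 9.17 and 30.5 CPM in diaphragm and 31.7, 28.2 and 20.7 CPM in skin. Foxc2 had the largest distance to its nearest gene, E2f8 at 0.82. It also varied most over the libraries, with an SD of 2.27 on the log2 scale beside 0.49 for Prox1. The distances were not scaled by a factor's own spread, so they do not rank how close the matches are between factors.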

How the data were processed

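The authors deposited raw read counts, with 1 row for each Ensembl gene and 1 column for each of the 9 libraries. Per the labels' protocols, RNA of sorted cells was extracted with a PicoPure kit and amplified with the Ovation RNA-Seq System V2. Per the submitters' processing notes, FastQC, STAR and HTSeq were used on the build mm9. Versions of these tools, annotation, strandedness and the rule for multi-mapped reads are not given in the sources used. Amplification of small RNA amounts can add spread at low counts, and its part was not tested.

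The members and gene lists were chosen with earlier results of these data known. All 23018 genes entered edgeR 4.0.16 in R 4.3.3 (filterByExpr, TMM, quasi-likelihood fit with 1 mean per tissue over the 9 libraries), and Benjamini-Hochberg adjustment ran over the 14831 genes kept, with calls at an adjusted p under 0.05. CPM used TMM-scaled library sizes. Exonic lengths came from GENCODE vM21 (GRCm38), since no mm9 annotation was used, and promoters from RefSeq. The text names the 9 factors, from each of the 3 lists the called genes and the 4 with the highest average level, and the 2 nearest profiles per factor, though not every one is printed. Genes given beyond that were chosen after their values were seen. Alternatives were scaling by DESeq2 size factors, upper quartile, library totals or 11 endothelial genes, no filter, 50 counts in 3 libraries, the DESeq2 1.42.0 Wald test, limma 3.58.1 voom with quality weights, 2 tissues alone, a replicate block and each library left out. A fit that kept Meninges replicate 1 alone of the meningeal libraries, and counts per 1000 Prox1 counts, were added after seeing the data. The edgeR, DESeq2 and voom tests were tested on simulated data. There edgeR missed most of the genes given a known change in meninges, at every size of change tried. A factor that did not pass is therefore not shown to be equal between tissues. The floor of 3 counts covers counting error only. Python 3.11.15 with pandas 2.3.3 served for tables and matplotlib 3.10.9 for plots. The plot of related genes leaves out 1 gene that is not reported here.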

Additional observations from a re-analysis of the deposited data

How the results depend on the processing

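Over the 27 log2 fold changes of the 9 factors and up to 20 alternatives, 501 of 531 values kept their direction and side of the threshold, 15 passed the test where the reported fit did not, and 15 changed sign. The count of factors called was 0 in each comparison and became 1 for meninges against diaphragm with limma voom. For meninges against skin it became 2 without a filter, 2 with 50 counts in 3 libraries, 3 with DESeq2, 3 with limma voom, and 0 to 1 with a library left out. For diaphragm against skin it became 2 with DESeq2. The sign changes were confined to Sox18, Hhex, and, for diaphragm against skin, Prox1 and Tbx1. With library totals alone, Sox18 had log2 fold changes of 0.027, 0.078 and 0.052 in meninges against diaphragm, meninges against skin and diaphragm against skin, Hhex 0.25 in meninges against skin and Prox1 0.066 in diaphragm against skin. This scaling moved the median of all genes to 0.24, 0.43 and 0.17, and scaling to endothelial genes moved it to 0.19, 0.19 and 0. With a library left out, Sox18 ran from -0.57 to 0.33 in meninges against diaphragm, from -0.72 to 0.19 in meninges against skin and from -0.32 to 0.15 in diaphragm against skin, Hhex from -0.57 to 0.23 in meninges against skin, and Tbx1 from -0.97 to 0.0203 in diaphragm against skin. With only Meninges replicate 1 kept of the meningeal libraries, which assumes that it varies like the other groups, Sox18 was 0.13 against diaphragm and Hhex 0.47 against skin, and the genes called were 11 and 58, with 82 for diaphragm against skin. The count of genes called moved more, with the cause not tested. For meninges against diaphragm (51 as reported) it was 33 with endothelial scaling, 298 without a filter, 926 with DESeq2, 200 with limma voom, 108 with 2 tissues alone and 19 to 105 with a library left out. For meninges against skin (196) it was 610 without a filter, 1435 with DESeq2, 414 with limma voom and 74 to 236 with a library left out. For diaphragm against skin (6) it was 14 with library totals, 12 with endothelial scaling, 305 without a filter, 13 with 50 counts in 3 libraries, 1018 with DESeq2, 1 with limma voom, 1 with 2 tissues alone and 2 to 58 with a library left out.

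With the replicate number as a block, 70, 231 and 16 genes were called in meninges against diaphragm, meninges against skin and diaphragm against skin, and 0 of the 9 factors, and Tbx3 and Nfatc2 were no longer called in meninges against skin. Deviations from the tissue mean had correlations of -0.02 to 0.05 between same-numbered libraries and of -0.06 to 0.04 between differently numbered ones. Whether same-numbered libraries share mice or a preparation is not given in the labels, and these correlations cannot decide it. At 26075366 to 34592850 counts per library, the lowest count of any factor was 23, for Foxc2 in Meninges replicate 1.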

Other observations

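Prox1os, annotated on the strand opposite to Prox1 with 133 shared exonic bases, had 1362 counts (50.2 CPM) in Diaphragm replicate 1, 2 counts in Diaphragm replicate 3 and 0 in the other 7 libraries. Prox1 itself had 45195 counts in Diaphragm replicate 1, the lowest of the diaphragm libraries. Gata4, a relative of Gata2, had 46.8, 29.0 and 4.66 CPM in diaphragm and no count in meninges or skin, a pattern that did not pass the test (edgeR adjusted p = 0.136 for meninges against diaphragm and 0.176 for diaphragm against skin) and that limma voom called in meninges against diaphragm and DESeq2 in both. The mesothelial marker sum of the 3 diaphragm libraries was 1194, 41.0 and 86.3 CPM, and its part in the Gata4 level was not tested. Tbx15, a mesenchymal T-box gene, was at 13.5, 76.5 and 64.5 CPM in meninges, 7.67, 0 and 0 CPM in diaphragm and 0, 4.26 and 0 CPM in skin. The fibroblast marker sums of the 3 meningeal libraries were 2445, 9459.9 and 9497 CPM, and their part in the Tbx15 level was not tested.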
